A study of Homo sapiens with 6 samples.

Results

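Fatty acid oxidation and lipid droplet genes were described in senescent A549 cells given salinomycin. The set held 9 genes, taken by symbol from a table of 16670 genes: CPT1A, CPT2, ACADM, ACADVL, HADHA, PDK4, ANGPTL4, PLIN2 and PNPLA2. All 9 had values in every library and all 9 passed the filter on low values, which left 13049 tested genes. The cells were A549, a long-established human line of non-small cell lung cancer. Every culture had first spent 1 week with alisertib, which blocks Aurora A, a kinase of cell division, and leaves the cells senescent, that is, lastingly out of the division cycle. The untreated group (n = 3 libraries) then received no second drug. The salinomycin group (n = 3) received 2.5 µM salinomycin, an ionophore that carries potassium and other alkali metal ions across membranes, for 48 h. Both groups therefore carry the alisertib treatment, both come from 1 cell line, and cells without alisertib were not analysed here.

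Long-chain fatty acids enter mitochondria as carnitine esters, made by CPT1 on the outer membrane and turned back into acyl-CoA by CPT2 on the inner one. Acyl-CoA dehydrogenases and the trifunctional protein then shorten the chain, and the acetyl-CoA they release competes with that made from pyruvate, a balance set in part by the pyruvate dehydrogenase kinases. Fat not burned is stored as triglyceride in lipid droplets, coated by perilipins and opened by lipases. Fatty acids themselves switch on many of these genes through the PPAR nuclear receptors, of which PDK4, ANGPTL4, PLIN2 and CPT1A are well-known targets.

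With salinomycin the 9 genes did not move as a block. PDK4, a kinase that shuts the pyruvate dehydrogenase complex, fell 10.6-fold, and CPT1A, the entry step for long-chain fatty acids, fell 2.5-fold. PNPLA2, which encodes the first lipase of stored triglyceride, rose 2.09-fold. ANGPTL4, ACADM, CPT2 and HADHA rose by 1.58-fold, 1.51-fold, 1.31-fold and 1.24-fold, and ACADVL fell 1.18-fold. PLIN2, the gene of a lipid droplet coat protein, was at 610 ± 49.2 and 619 ± 29 normalised units (SD, n = 3 per group) and did not pass. In all, 5 of 9 rose and 3 of 9 fell in limma (Benjamini-Hochberg adjusted p, threshold 0.05). That count is no result about these genes, because 82.0% of all tested genes passed, 41.6% higher and 40.4% lower. With library-size scaling 6 of 9 rose and 2 of 9 fell, against 82.7% of all tested genes, 49.3% higher and 33.4% lower. The 2 groups did not overlap for 8 of the 9 genes, against 83.1% of all tested genes.

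Levels are given in normalised units, the rescaled values of the deposited table after trimmed-mean (TMM) scaling between libraries. Before that scaling the values of a library summed to 16253579 to 16366234. A log2 change is the fitted salinomycin minus untreated difference of log2(units + 1). Scaling matters for small changes here. Over all tested genes the median change was 0.02 with TMM and 0.21 with library-size scaling. Under it ACADVL no longer passed and PLIN2 did, and each is described below with both values. The other 7 genes kept their direction and their call under both. Recovered reads, an estimate of sequencing depth, were 13539959 to 19593759 per library, and ANGPTL4, which had the fewest in the untreated libraries, had 604 of them there. The labels number the libraries as biological replicates without saying how the cultures were separated, so p-values measure the spread between these libraries.

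Libraries of 1 group correlated at 0.993 to 0.9952 and those of different groups at 0.8413 to 0.846 (Pearson's r across genes, which are not independent replicates). The summed level of 6 epithelial markers was 210300 to 238100 units in untreated and 61090 to 70540 units in salinomycin libraries. Most of it came from KRT7, KRT8 and KRT18, whereas EPCAM was at 46.7 ± 9.02 and 19.0 ± 3.06 units. With salinomycin 5 of 6 were lower and KRT19 was higher. Of 6 adipocyte markers ADIPOQ was not analysed here, LEP had 0 units in the untreated libraries, FABP4 reached at most 1.88 units, PLIN1 and CIDEC fell and LIPE rose. The adipocyte sum was 147.3 to 205.4 units in untreated and 108.3 to 125.6 units in salinomycin libraries. Of 4 endothelial markers 3 had values, none passed the filter, and they summed to at most 15.13 units. Of 5 leukocyte markers, CD14 fell and CD68 was below the filter, and PTPRC, CD3E and MS4A1 were not analysed here. The leukocyte sum was 188.9 to 222.7 units in untreated and 25.31 to 54.45 units in salinomycin libraries, and that of 6 fibroblast markers was 600.1 to 822.7 and 411.6 to 449.9. The 13 mitochondrially encoded genes made up 3.37% to 3.72% of untreated and 0.289% to 0.351% of salinomycin values. These shifts run along with every comparison below, and their part in the lipid gene results was not tested. All libraries come from 1 cell line, so the marker sums are RNA levels in A549 cultures and not counts of other cell types. In such bulk samples fewer cells expressing a gene and less of its RNA per cell cannot be told apart.

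**Figure D1:**
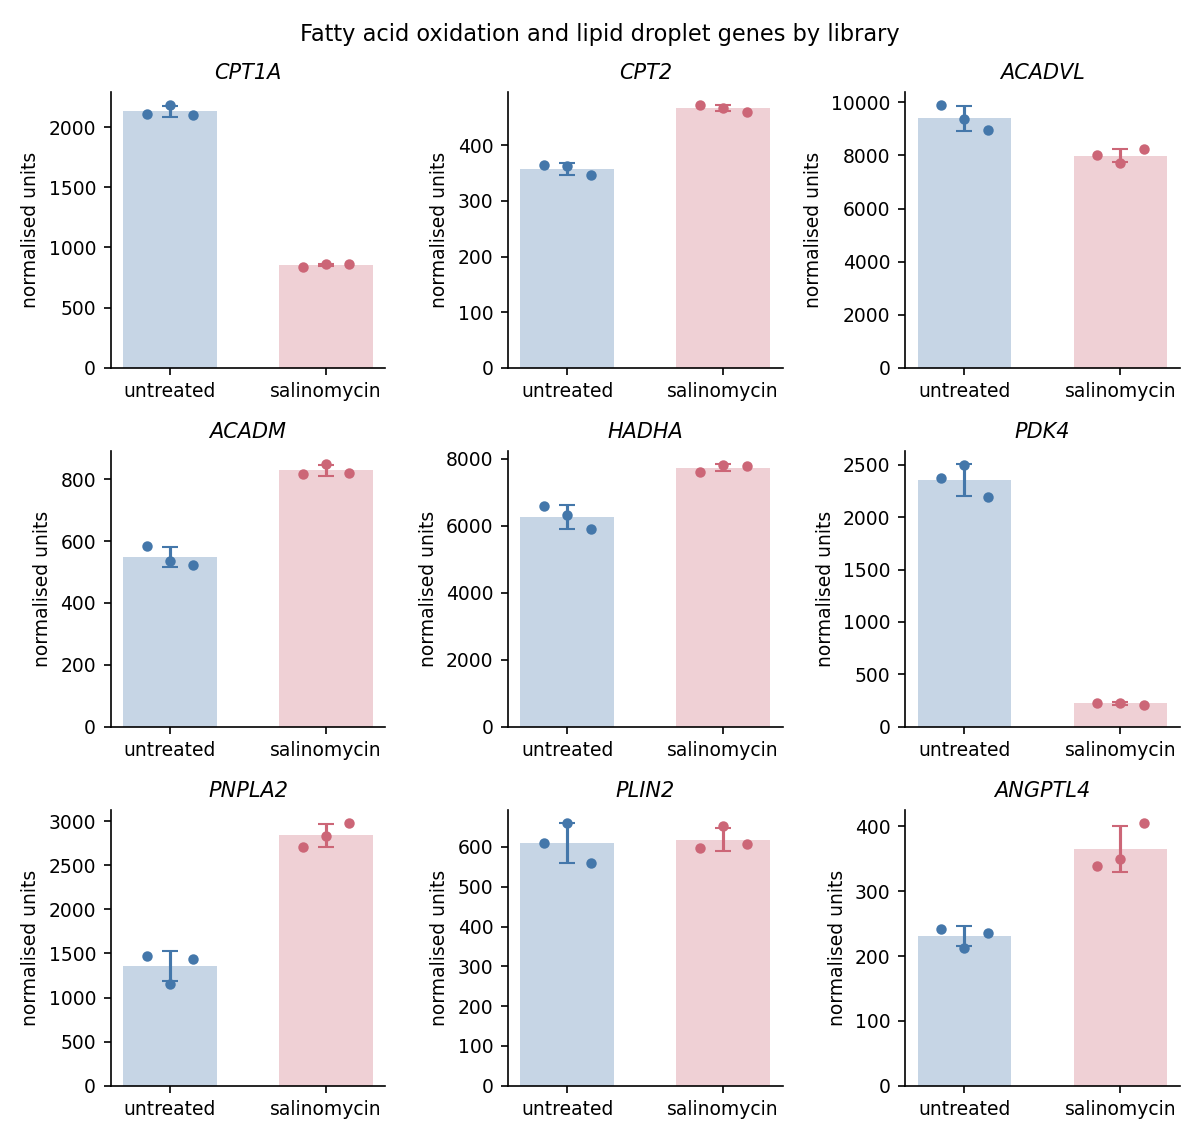
Normalised units of each of the 9 genes in each library (points), with the group mean (bar) and SD (error bar), n = 3 per group and each axis starting at 0. The salinomycin points lie apart from the untreated points for every gene except PLIN2.

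Per kilobase of principal transcript in GENCODE release 29, the untreated levels were highest for ACADVL (4050 ± 204 units per kb) and HADHA (2060 ± 115). PDK4 (658 ± 43.2), PNPLA2 (559 ± 71.3), CPT1A (407 ± 8.52), PLIN2 (309 ± 24.9) and ACADM (209 ± 12.3) came next. ANGPTL4 (123 ± 8.22) and CPT2 (116 ± 3.34) were lowest and did not differ beyond their spread (SD, n = 3). With salinomycin ACADVL (3440 ± 108) and HADHA (2550 ± 35.1) still led, PNPLA2 followed at 1170 ± 55.6 and PDK4 stood last at 61.9 ± 2.97. ACADM (316 ± 6.82) and PLIN2 (314 ± 14.7) had become level, and CPT1A (163 ± 2.27) lay between ANGPTL4 (194 ± 18.8) and CPT2 (151 ± 1.83). The transcript chosen for CPT1A has 5232 bases, and with a shorter principal form of 2382 bases its level was 895 ± 18.7 units per kb without and 358 ± 5.0 with salinomycin. That would place it above PDK4 in untreated libraries and above ACADM with salinomycin. Between replicates the 9 genes varied little, with coefficients of variation of 1.21% (CPT2, salinomycin) to 12.8% (PNPLA2, untreated).

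The 250 bases before the RefSeq transcription start were searched on both strands for 3 motifs: the PPAR response element (AGGTCA and AGGTCA with 1 base of any kind between them), TGATGNAAN (an ATF4 element) and CACGTG (the E-box). All 9 genes matched the RefSeq table on GRCh38.p14, ACADVL with 2 start sites. The windows of the 2 genes that fell most, of the gene that rose most and of PLIN2, which holds the only match, are shown, since genes known as PPAR targets moved in different directions, 5′ to 3′ on the gene's strand, with the match in capitals.
PDK4, chr7:95596517-95596766, minus strand: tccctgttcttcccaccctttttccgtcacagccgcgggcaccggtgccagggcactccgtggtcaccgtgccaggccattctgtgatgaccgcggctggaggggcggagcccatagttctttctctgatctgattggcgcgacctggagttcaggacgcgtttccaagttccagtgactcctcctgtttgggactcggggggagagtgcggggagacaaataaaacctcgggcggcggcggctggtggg
CPT1A, chr11:68844278-68844527, minus strand: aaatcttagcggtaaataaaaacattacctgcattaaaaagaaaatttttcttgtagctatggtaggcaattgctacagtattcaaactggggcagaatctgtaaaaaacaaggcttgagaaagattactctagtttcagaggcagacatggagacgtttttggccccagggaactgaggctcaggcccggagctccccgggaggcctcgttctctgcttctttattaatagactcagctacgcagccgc
PNPLA2, chr11:818664-818913, plus strand: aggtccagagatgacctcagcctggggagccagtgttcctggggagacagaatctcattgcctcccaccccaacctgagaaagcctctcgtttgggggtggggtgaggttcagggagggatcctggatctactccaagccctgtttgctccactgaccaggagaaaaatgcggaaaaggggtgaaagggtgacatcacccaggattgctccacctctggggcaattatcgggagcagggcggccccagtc
PLIN2, chr9:19127493-19127742, minus strand: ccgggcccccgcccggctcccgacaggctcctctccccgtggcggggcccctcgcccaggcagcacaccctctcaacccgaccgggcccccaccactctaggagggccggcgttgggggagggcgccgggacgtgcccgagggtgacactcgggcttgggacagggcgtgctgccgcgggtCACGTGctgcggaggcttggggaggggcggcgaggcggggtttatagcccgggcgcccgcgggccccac
The CACGTG of PLIN2 begins 69 bases before the start. Of 35116 RefSeq windows of that length, 6.34% hold CACGTG, 3.13% hold TGATGNAAN and 0.0171% hold the PPAR response element. PDK4, CPT1A and PNPLA2 hold none of the 3 in this window, which says nothing about sites elsewhere. Only exact matches to these patterns were sought, so variant sites inside the window were not assessed. With the PPAR element in 0.0171% of windows, finding none was likely from the outset and says nothing about PPAR binding. The windows shown also differ in base composition, with 62.8% G or C for PDK4, 44.4% for CPT1A, 58.4% for PNPLA2 and 78.0% for PLIN2.

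CPT1A encodes the carnitine palmitoyltransferase of the outer mitochondrial membrane, which malonyl-CoA inhibits and which is held to set the rate of fatty acid entry (chromosome 11, 68754620 to 68844410, minus strand, GRCh38). Its level was 2108, 2182 and 2102 units in the untreated libraries and 840, 860 and 861 units with salinomycin. The groups lay far apart and the 3 salinomycin values differed by little. The log2 change was -1.32 (SE 0.0494; limma adjusted p = 2.35e-10). Of the 13049 tested genes, 1788 had a more negative change. CPT1C, a brain-type relative, went the other way, from 133 ± 21.8 to 197 ± 18.1 units (log2 change 0.58; limma adjusted p = 0.00159), and CPT1B, the muscle form, was below the filter. CPT1A held 89.4% ± 1.58 of the summed CPT1 level per kb in untreated libraries and 70.0% ± 1.53 with salinomycin, or 94.6% ± 0.854 and 82.9% ± 1.02 with the shortest principal transcripts.

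CPT2 encodes the inner-membrane partner that returns the acyl group to CoA (chromosome 1, 53196429 to 53214197). It stood at 364, 363 and 346 units in untreated libraries and at 472, 468 and 461 units after salinomycin. All salinomycin values were higher than all untreated ones, with a log2 change of 0.38 (SE 0.0674; limma adjusted p = 0.000206). Exons of CPT2 share 1151 bases with the antisense gene AL606760.2, and the sources used here do not say whether reads were counted by strand. Within a library, and so free of any scaling between libraries, the level of CPT1A per kb was 3.52 ± 0.0912 times that of CPT2 in untreated and 1.08 ± 0.0268 times in salinomycin libraries. With the shorter CPT1A transcript these ratios were 7.74 ± 0.2 and 2.37 ± 0.059. The two-sided exact permutation p was 0.1 for this and for the 6 other ratios computed, which is the smallest that 3 against 3 allows, and the Benjamini-Hochberg value was 0.1 as well.

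ACADM encodes the medium-chain acyl-CoA dehydrogenase (chromosome 1, 75724347 to 75787575), at 585, 536 and 524 units untreated and 818, 849 and 819 units with salinomycin. It rose without overlap, with a log2 change of 0.60 (SE 0.0638; limma adjusted p = 2.84e-06). ACADM shares 157 exon bases with RABGGTB on the same strand, so a few reads cannot be assigned to one or the other.

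ACADVL encodes the very-long-chain acyl-CoA dehydrogenase of the inner membrane (chromosome 17, 7217125 to 7225273). Its values were 9899, 9364 and 8954 units in untreated and 8017, 7730 and 8232 units in salinomycin libraries. The groups did not overlap, although the lowest untreated and highest salinomycin values were close. The log2 change was -0.23 (SE 0.0523; limma adjusted p = 0.00132), against -0.04 (limma adjusted p = 0.434, 95% interval -0.15 to 0.07) with library-size scaling. Whether ACADVL fell thus depends on where the scaling sets no change. The ACADM level per kb was 0.0517 ± 0.000823 of that of ACADVL in untreated and 0.0921 ± 0.00482 in salinomycin libraries, a shift that needs no scaling between libraries.

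HADHA encodes the alpha subunit of the trifunctional protein, which carries hydratase and long-chain hydroxyacyl-CoA dehydrogenase activities (chromosome 2, 26190635 to 26244726). It measured 6579, 6313 and 5889 units without and 7615, 7818 and 7772 units with salinomycin. The salinomycin libraries were higher and more alike, with a log2 change of 0.31 (SE 0.0516; limma adjusted p = 0.000148). HADHB, which encodes the beta subunit with the thiolase activity, went from 3499 ± 155 to 3992 ± 57.4 units (log2 change 0.19; limma adjusted p = 0.00335), and with upper-quartile scaling its change was 0.10 and did not pass (limma adjusted p = 0.0769). Against HADHA, the level of CPT1A per kb went from 0.198 ± 0.0109 to 0.064 ± 0.000233 within a library, or from 0.435 ± 0.0239 to 0.141 ± 0.000512 with the shorter CPT1A transcript. Per kb the HADHA level was 1.2 ± 0.0281 times that of HADHB untreated and 1.3 ± 0.00584 times with salinomycin.

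**Figure D2:**
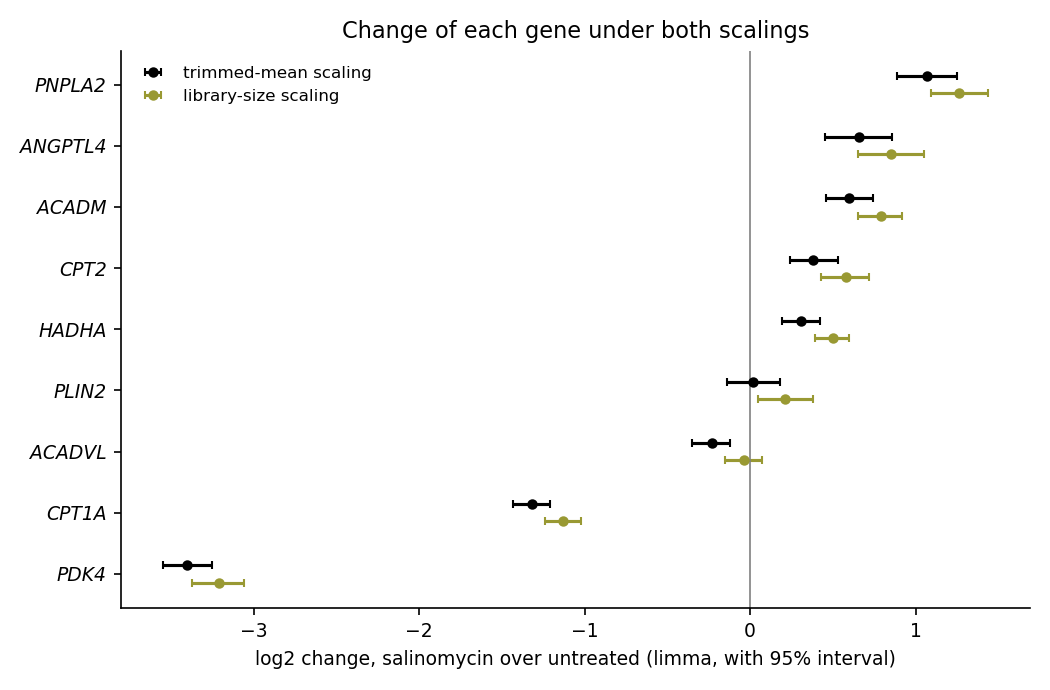
Fitted log2 change of each of the 9 genes, salinomycin over untreated, with its 95% interval from limma, under trimmed-mean scaling (black) and library-size scaling (olive). PDK4 (-3.40) and CPT1A (-1.32) lie far to the left and PNPLA2 (1.07) to the right under both, whereas the intervals of ACADVL and PLIN2 reach 0 under 1 scaling and not the other.

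PDK4 encodes a mitochondrial kinase that phosphorylates and so shuts off the pyruvate dehydrogenase complex, and is known to be induced by fasting, fatty acids and glucocorticoids (chromosome 7, 95583499 to 95596491, minus strand). It was at 2376, 2496 and 2190 units in untreated libraries and at 230, 225 and 209 units after salinomycin. The lowest untreated value was far above the highest salinomycin value. The log2 change was -3.40 (SE 0.0683, 95% interval -3.55 to -3.25; limma adjusted p = 2.18e-12), and 243 of 13049 tested genes had a more negative one. Against CPT1A, another PPAR target, PDK4 per kb went from 1.62 ± 0.0802 to 0.38 ± 0.0223 within a library, or from 0.736 ± 0.0365 to 0.173 ± 0.0102 with the shorter CPT1A transcript. Which of the genes stood higher in untreated libraries thus depends on that transcript, and the fold between the groups does not.

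Other genes that control the pyruvate dehydrogenase complex moved as well. PDK3 fell from 929 ± 99.4 to 325 ± 30.1 units (log2 change -1.51) and PDK2 from 877 ± 75.5 to 383 ± 29.2 units (-1.19). PDK1, the kinase known as a hypoxia target, rose from 171 ± 5.97 to 359 ± 47.1 units (1.06). The phosphatases that reverse the kinases rose, PDP1 from 133 ± 6.06 to 547 ± 51.2 units (2.03) and PDP2 from 277 ± 27.9 to 835 ± 72.8 units (1.59). The limma adjusted p was between 1.09e-09 (PDP1) and 1.36e-06 (PDK1) for these 5 genes.

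Per kb, PDK4 held 46.7% ± 2.56 of the summed level of the 4 kinase genes without and 16.8% ± 0.432 with salinomycin (SD; exact permutation p = 0.1, two-sided, n = 3 per group). PDK1 is annotated with a transcript of 14193 bases. With the shortest principal transcripts, of which that of PDK1 has 2990 bases, the share of PDK4 was 45.3% ± 2.44 and 13.4% ± 0.0267. PDK4 was therefore the kinase with the highest level per kb before salinomycin, ahead of PDK3, and after it stood below PDK2 and PDK3 by either measure. The summed level of the 4 kinases was 1410 ± 42.4 units per kb without and 368 ± 12.3 with salinomycin. That of PDP1 and PDP2 was 69.8 ± 4.64 and 245 ± 19.6, and for both sums the exact permutation p was 0.1, the smallest possible with n = 3 per group. Of 11 other genes in the list of this complex, kinases and phosphatases, 5 rose, 4 fell and 2 did not pass. PDHX, which encodes the component that binds the E3 subunit, rose from 619 ± 31.8 to 1348 ± 30.7 units. PDHA1, the E1 alpha subunit and the most abundant of the list, went from 2457 ± 98.1 to 1894 ± 74.4 units (log2 change -0.38, and -0.18 with library-size scaling).

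**Figure D3:**
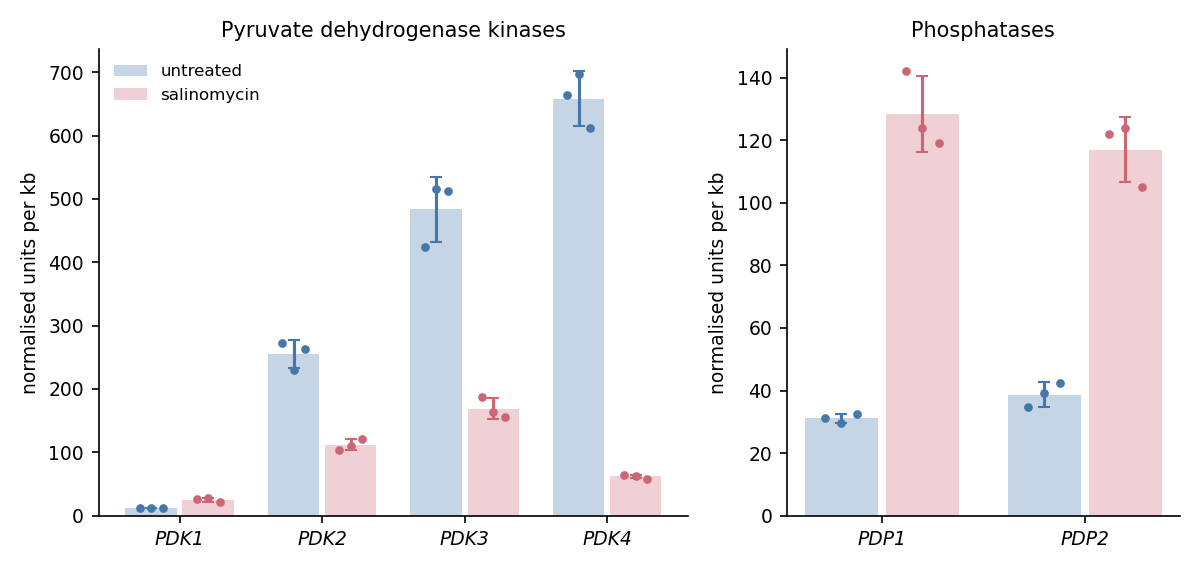
Normalised units per kb of principal transcript for the pyruvate dehydrogenase kinase genes (left) and phosphatase genes (right), with points for libraries, bars for group means and error bars for SD (n = 3 per group). PDK4 has the tallest untreated bar and falls from 658 to 61.9 units per kb, while PDP1 and PDP2 rise from 31.1 and 38.7 to 128 and 117.

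PNPLA2 encodes adipose triglyceride lipase (ATGL), which takes the first fatty acid off stored triglyceride (chromosome 11, 818902 to 825573). Untreated libraries held 1473, 1158 and 1438 units and salinomycin libraries 2709, 2830 and 2979 units. Untreated replicate 2 was lower than the other two, and all salinomycin values were above all untreated ones. The log2 change was 1.07 (SE 0.0832; limma adjusted p = 1.48e-07), and 0.96 without that library. PNPLA2 shares 401 exon bases with the antisense gene AP006621.1. ABHD5, which encodes a protein that activates ATGL, rose from 218 ± 9.29 to 563 ± 35.4 units (log2 change 1.37). G0S2, the gene of an ATGL inhibitor, was at 16.4 ± 4.82 and 16.5 ± 3.18 units and did not pass. It had only 43 recovered reads over the untreated and 59 over the salinomycin libraries. ABHD5 and G0S2 alone do not show which way the control of ATGL moved, which was not tested.

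PLIN2 encodes perilipin 2, the droplet coat protein found in most cell types (chromosome 9, 19108375 to 19149290, minus strand). Its values were 610, 660 and 561 units in untreated and 597, 652 and 607 units in salinomycin libraries. All 3 salinomycin values lay within the untreated range. The log2 change was 0.02 (SE 0.0737, 95% interval -0.14 to 0.18; limma adjusted p = 0.789). With library-size scaling it was 0.21 (95% interval 0.05 to 0.38; limma adjusted p = 0.0189) and with upper-quartile scaling -0.06. The level of PNPLA2 per kb was 1.82 ± 0.35 times that of PLIN2 untreated and 3.73 ± 0.232 times with salinomycin. Among the perilipin genes per kb, PLIN2 held 31.9% ± 3.02 untreated and 33.7% ± 1.83 with salinomycin, and PLIN3, the widely expressed relative, held 67.2% ± 2.93 and 66.0% ± 1.83. PLIN1, the adipocyte form, fell from 21.8 ± 2.88 to 4.37 ± 2.37 units, on only 57 and 14 recovered reads.

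ANGPTL4 encodes a secreted inhibitor of lipoprotein lipase (chromosome 19, 8363289 to 8374373). It was at 242, 213 and 236 units without and 339, 350 and 405 units with salinomycin. The groups did not overlap, and salinomycin replicate 3 was the highest. The log2 change was 0.66 (SE 0.0938; limma adjusted p = 3.68e-05). Per kb the ANGPTL4 level was 0.399 ± 0.0535 of that of PLIN2 without and 0.619 ± 0.071 with salinomycin. LPL, the gene of its target, had 1 recovered read over the untreated and 1 over the salinomycin libraries. LMF1, which encodes a factor needed to fold lipases, rose from 377 ± 26.6 to 590 ± 17.4 units. VLDLR, the most abundant gene of the lipoprotein lipase list, was at 1590 ± 41.4 and 1694 ± 14.2 units and did not pass, although it passed with library-size scaling (log2 change 0.28). Only 3 of the 8 genes of that list with values were tested, and 2 of them rose.

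Further genes of lipid use were grouped in 10 lists of 141 genes that exclude the 9. Of these, 112 were tested, 20 were below the filter and 9 were not analysed here. Over the lists 44 rose, 56 fell and 12 did not pass. No list was tested against other genes, and each count is to be read against the 41.6% of all tested genes that rose and the 40.4% that fell. Genes named from the lists outside the stated rule, and all families and ratios, were chosen after their values were seen.

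**Figure D4:**
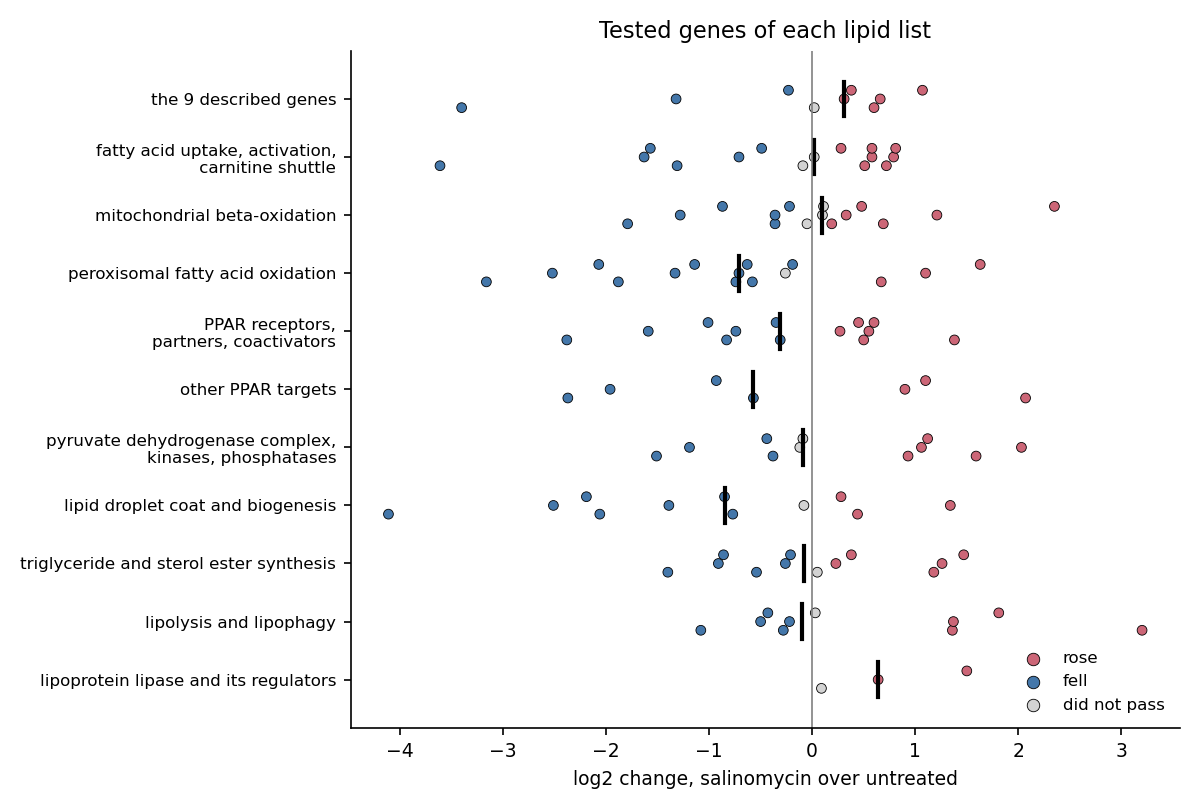
Fitted log2 change, salinomycin over untreated, of each tested gene (point) in the 9 described genes and the 10 lists, coloured by call, with the median of each group as a black bar. Peroxisomal oxidation and lipid droplet genes lie mostly left of 0 with medians of -0.71 and -0.85, whereas other lists spread to both sides.

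Among genes of fatty acid uptake, activation and the carnitine shuttle, 7 of 15 rose and 6 fell. Their median log2 change was 0.02 and turned to -0.06 with upper-quartile scaling. The fatty acid transporter genes SLC27A1 and SLC27A2 fell 2.98-fold and 2.47-fold. CRAT, whose product moves acetyl groups onto carnitine, rose 1.75-fold, and the carrier SLC25A20, which passes acylcarnitines inward between CPT1 and CPT2, rose from 328 ± 14.4 to 542 ± 28.9 units. ACACB, which makes the malonyl-CoA that inhibits CPT1, rose from 650 ± 29.2 to 1123 ± 41.0 units (log2 change 0.79; limma adjusted p = 1.26e-07). The most abundant gene, the acyl-CoA synthetase ACSL3, rose 1.21-fold.

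Of 15 further mitochondrial beta-oxidation genes 6 rose and 6 fell (median 0.10), or 9 and 4 with library-size scaling (median 0.29). ACADS, the short-chain acyl-CoA dehydrogenase gene, fell from 355 ± 27.6 to 102 ± 15.3 units (log2 change -1.79). DECR1, which handles double bonds of unsaturated chains, fell from 835 ± 42.7 to 342 ± 9.67 units. ACAD9, a family member best known for building complex I, rose from 498 ± 8.87 to 1151 ± 31.3 units. The dehydrogenases therefore did not move together, with log2 changes of -1.79 for ACADS, -0.23 for ACADVL (-0.04 with library-size scaling), 0.60 for ACADM and 1.21 for ACAD9.

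Peroxisomes shorten very long and branched chains. Of 15 tested peroxisomal genes, 11 fell and 3 rose, with a median of -0.71 (10 and 3, median -0.52, with library-size scaling). CROT, which makes carnitine esters of the shortened chains, fell 5.69-fold from 988 ± 28.9 units, and EHHADH, the bifunctional enzyme, fell 3.71-fold. PHYH, which starts the breakdown of phytanic acid, rose 3.1-fold.

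Genes of the PPAR receptors, partners and coactivators rose in 6 and fell in 7 of 13 cases (6 and 5 with library-size scaling). All 3 receptor genes rose, PPARD from 439 ± 45.7 to 1138 ± 23.5 units, PPARA from 398 ± 28.2 to 581 ± 41.0 and PPARG from 466 ± 12.6 to 662 ± 47.8. Their heterodimer partner RXRA fell from 1091 ± 96.8 to 541 ± 32.4 units and RXRB rose from 696 ± 26.8 to 1057 ± 27.0. The coactivator genes did not all move 1 way. NCOA1 fell by 0.83 on the log2 scale, and PPARGC1B from 92.4 ± 10.1 to 30.2 ± 4.5 units. PPARGC1B averaged only 3.75 CPM. NCOA2 fell too, as did PPARGC1A on 44 and 9 recovered reads, whereas MED1 rose from 1462 ± 10.4 to 1760 ± 65.1 units. Of 7 tested PPAR targets beside the 9 genes, 3 rose and 4 fell. UCP2, an inner-membrane carrier, fell from 2508 ± 204 to 485 ± 28.8 units, SLC25A42, a CoA carrier, rose from 123 ± 21.4 to 514 ± 26.0, and ACOT2, a mitochondrial thioesterase, fell 1.49-fold. These targets went both ways, and among the 9 genes PDK4 and CPT1A fell while ANGPTL4 rose.

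Lipid droplet coat and biogenesis genes fell in 7 and rose in 3 of 11 cases, with a median of -0.85 (-0.66 with library-size scaling). The droplet-associated enzymes METTL7B and HSD17B11 fell 4.2-fold and 2.62-fold. FITM2, needed for droplets to bud from the ER, fell from 977 ± 7.17 to 543 ± 0.176 units. AUP1, a droplet and ER protein and the most abundant, rose 1.22-fold. The other genes that rose were HILPDA, 1.35-fold, and BSCL2, from 37.8 ± 9.43 to 95.2 ± 5.31 units on 99 and 331 recovered reads. CIDEC, which fuses droplets and also marks adipocytes, fell from 138 ± 29 to 7.16 ± 2.14 units, on 366 and 26 recovered reads.

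In triglyceride and sterol ester synthesis 5 of 12 genes rose and 6 fell, or 6 and 4 with library-size scaling, and the median of -0.08 turned to 0.11 under it. DGAT2, one of the enzymes of the last step, rose 2.79-fold, GPAT3 of the first step rose 2.4-fold, and the phosphatidate phosphatase LPIN3 fell 2.64-fold. GPAT4, the most abundant, had a log2 change of -0.26, and -0.07 without passing with library-size scaling. Of 10 lipolysis genes other than PNPLA2, 4 rose and 5 fell, or 4 and 3 with library-size scaling, and the median of -0.10 turned to 0.09. Besides ABHD5, LIPA, the lysosomal acid lipase gene, rose from 1619 ± 41.7 to 4162 ± 63.5 units. LIPE, the hormone-sensitive lipase that acts after ATGL, rose from 10.7 ± 3.21 to 104 ± 8.79 units (log2 change 3.20; limma adjusted p = 5.87e-08). LIPE averaged only 3.52 CPM, with 28 recovered reads over the untreated and 360 over the salinomycin libraries. MGLL, which takes off the last fatty acid and is the most abundant, fell from 7372 ± 733 to 3481 ± 188 units.

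Over the 6 libraries and 112 tested list genes, the patterns nearest to that of PNPLA2, by Euclidean distance of centred log2 values, were those of VNN1 (distance 0.22) and PDHX (0.226). VNN1 had few reads, 14 over the untreated and 44 over the salinomycin libraries. Nearest to PDK4 were ACOX2 (0.408), a peroxisomal oxidase gene with 117 and 15 reads, and CIDEC (1.13). With 2 groups such a distance mostly compares sizes of change.

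The authors' deposited table gives log2 fold changes of -3.21 for PDK4, -1.12 for CPT1A, 1.26 for PNPLA2 and 0.216 for PLIN2, the last with an adjusted p of 0.0308 there. For ACADVL the authors' deposited table lists -0.0374 with an adjusted p of 0.593. In the authors' deposited table of gene sets, 132 names matched fatty acid oxidation, metabolism or breakdown, lipid droplets, lipolysis, PPAR or adipogenesis. Of those, 5 had a positive and 7 a negative normalised enrichment score at the authors' adjusted p under 0.05, or 9.09% of the matching sets, against 17.8% of all 21624 sets in the authors' deposited table. By their names 3 of these 12 sets concern adipogenesis and 9 concern PPARG or its ligands in immune cells, and none is a set of fatty acid oxidation, fatty acid metabolism, lipolysis or lipid droplets. The authors' deposited table scores the Reactome set of mitochondrial beta-oxidation at 0.744 (adjusted p = 0.933) and the lipid droplet set of Gene Ontology at 0.893 (adjusted p = 0.825). The hallmark set of fatty acid metabolism has, in the authors' deposited table, a score of -1.382 (adjusted p = 0.0644).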

How the data were processed

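Gene-level RNA-seq values of 6 libraries in 2 groups of 3 were compared. The submitters' processing notes name GRCh38, and the aligner, counter and scaling tool are not given in the sources used here. Signal values deposited for each library were whole numbers rescaled to totals within 0.693% of each other, with 1 as the lowest value. Per the file headers, the authors also deposited log10 means, log2 fold changes, linear fold ratios, a test score and p-values per gene, and enrichment scores with p-values per gene set.

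After taking 1 off each value, libraries were scaled by library size and TMM factors (30% trimming of log ratios, 5% of levels). Genes with 10 or more units in at least 3 libraries were tested as log2(units + 1) with limma 3.58.1 in R 4.3.3, with its trend option and Benjamini-Hochberg adjustment over all of them. Reads were estimated from the steps that rescaling leaves in low whole numbers. No 2 libraries of a group were repeats of each other (chi-square divided by genes, 2.86 to 6.73). On simulated data for this comparison (12924 genes tested) the fit recovered 41.5% of 1.2-fold, 90.2% of 1.5-fold, 94.7% of 2-fold and 100% of 4-fold changes, and 4 of 133 calls were false. The simulation changed 200 genes, up or down at random, far fewer than passed in the real data. It therefore does not test the choice of scaling, on which ACADVL and PLIN2 depend.

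The 9 genes and the lists were chosen with earlier results of these data known. Named genes were the 9, per list the 3 called genes of largest change with 5 or more CPM of the rescaled total and no overlap, its most abundant gene, and the 2 nearest patterns of the largest rise and fall. Some genes under this rule are not reported here. Alternatives were other scalings, filters and pseudocounts, limma-voom on estimated reads, a replicate block and leaving out each library. Coordinates are those of GENCODE release 29, 1-based, and promoter sequences are from RefSeq (GRCh38.p14).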

Additional observations from a re-analysis of the deposited data

How the results depend on the processing

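Of the 9 genes, 8 passed under each of 9 alternatives and each of 6 fits without 1 library, with 5 or 6 higher and 2 or 3 lower. Over all genes the calls numbered 9659 to 11380, and 10335 to 10588 without 1 library (higher 5185 to 5415, lower 5150 to 5212), against 10700. Without 1 library PDK4 ranged from -3.46 to -3.36, CPT1A from -1.34 to -1.30 and PNPLA2 from 0.96 to 1.14. ACADVL did not pass with library-size scaling (-0.04), where PLIN2 did (0.21). PLIN2, which did not pass in the main comparison, turned to -0.06 with upper-quartile scaling, -0.04 without untreated replicate 3 and -0.02 without salinomycin replicate 2 (range without 1 library -0.04 to 0.08). The medians of 4 lists changed sign under some alternatives. That of fatty acid uptake, activation and carnitine shuttle was -0.06 with upper-quartile scaling, -0.09 with no filter and -0.01 without salinomycin replicate 1 (range without 1 library -0.01 to 0.05), against 0.21 with library-size scaling and 0.28 with the filter of 50. With library-size scaling the medians were 0.10 for the pyruvate dehydrogenase list, 0.11 for triglyceride synthesis (0.23 with no filter) and 0.09 for lipolysis (0.01 without untreated replicate 3, range without 1 library -0.16 to 0.01). The filter of 50 gave -0.22 for lipolysis. The median of mitochondrial beta-oxidation stayed above 0, at 0.02 with upper-quartile and 0.29 with library-size scaling. The scaling shifts all genes alike, and other causes were not tested. With the replicate number as a replicate block the calls were 10434 over all genes and 8 of 9. Same-numbered libraries did not deviate together (r = -0.178, -0.016 and -0.034), and differently numbered ones had r from -0.154 to 0.194. These values give no sign of pairing by number. With 3 libraries per group they cannot show that the cultures were unpaired.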
